A study of Mus musculus with 7 samples.

Results

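Superoxide dismutases turn superoxide into hydrogen peroxide, and catalase, glutathione peroxidases and peroxiredoxins then remove the peroxide. The genes examined were *Sod1*, *Sod2*, *Sod3*, *Cat*, *Gpx1*, *Gpx3*, *Prdx1*, *Prdx2*, *Prdx3* and *Prdx6*, 10 of the 55487 genes in the count table, chosen by name and found by their GENCODE M21 symbols. The RNA came from cervical spinal cords of 8-week-old mice, with 4 libraries from *Neat1*-KO; hSOD1G93A mice and 3 from *Neat1*-WT; hSOD1G93A mice. Every mouse therefore carried the transgene for human SOD1 with the G93A mutation, a model of familial amyotrophic lateral sclerosis (ALS), and the groups differed in *Neat1*, a long non-coding RNA that builds the nuclear bodies called paraspeckles. The transgene was hemizygous in the source colony, the *Neat1* genotypes came from crosses of heterozygous parents, and mice without the transgene were not analysed here. The comparison asks whether loss of *Neat1* changed the mRNA of these enzymes in cord that expresses mutant SOD1.

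The enzymes are divided by compartment. *Sod1*, a copper and zinc enzyme, works mainly in the cytosol, *Sod2*, a manganese enzyme, in the mitochondrial matrix, and *Sod3* outside the cell. Catalase acts mostly in peroxisomes, *Gpx1* in the cytosol and mitochondria, and *Gpx3* is secreted. *Prdx1* and *Prdx2* are cytosolic peroxiredoxins that are recycled by thioredoxin, *Prdx3* is their mitochondrial relative, and *Prdx6* has a single active cysteine. Dominant mutations of human SOD1 cause ALS, and the mutant protein misfolds and aggregates in motor neurons.

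The mouse *Sod1* gene lies on mm10 at chr16:90220754-90226329 on the plus strand. The 30 bases around its codon 94, counted from the start codon, are shown because this is the glycine that the transgene's human protein has lost (position 93 when the first methionine is left out). The window is at chr16:90225172-90225201 on the plus strand, in the coding sequence of transcript Sod1-201, and the capitals mark the glycine codon. The mouse reference has glycine there.
Sod1: tgctggaaaggacGGTgtggccaatgtgtc
*Gpx1* and *Gpx3* are selenoproteins, which read an internal TGA as selenocysteine, the residue that attacks peroxide. Their windows are shown to mark this dependence on selenium supply, with the TGA in capitals, at codon 47 of Gpx1-201 (chr9:108339438-108339467, plus strand) and codon 73 of Gpx3-201 (chr11:54907243-54907272, plus strand).
Gpx1: tgtcgcgtctctcTGAggcaccacgatccg
Gpx3: cgtagccagctacTGAggtctgacagacca
All of these sequences are from GENCODE M21 transcripts on GRCm38, the assembly that mm10 names, and each lies within coding sequence.

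Total counts ranged from 19661878 to 26031517 per library. Levels below are in CPM, the count of a gene as a rate of its library's total, after scaling by the trimmed mean of M values (TMM). *Neat1* itself was between 4.04 and 5.52 CPM in the *Neat1*-KO libraries and between 80.5 and 118.4 CPM in the *Neat1*-WT libraries, a log2 fold change of -4.25 (edgeR adjusted p = 1.52e-08), which fits the labels. The study's methods describe sex-balanced groups of male and female mice. However, *Xist*, which female cells transcribe, had counts of 0 to 4 in every library, at most 0.161 CPM. These libraries thus gave no sign of female cells, and the sex of each mouse was not otherwise established. Of 6 motor neuron markers (*Chat*, *Slc5a7*, *Slc18a3*, *Isl1*, *Mnx1* and *Prph*) all were detected in every library and none passed the test. All 6 had log2 fold changes below 0 (median -0.25), and 3 had an unadjusted edgeR p under 0.05, against 4.64% of all genes tested. Their summed level was lower in all *Neat1*-KO libraries (277.8 to 338.4 CPM) than in all *Neat1*-WT libraries (359.7 to 428.1 CPM), and its part in the values below was not tested. Bulk RNA cannot tell fewer cells of a type from less RNA per cell. Astrocyte, oligodendrocyte, microglial and blood vessel markers were present throughout, with summed levels that overlapped between the genotypes, and none passed the test. All 6 oligodendrocyte markers had log2 fold changes below 0 (median -0.14) and all 6 microglial markers above 0 (median 0.05), and their part was not tested either.

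None of the 10 enzyme genes passed the test for a difference between the genotypes. All 10 passed the filter on low counts, and none passed both thresholds, which are 0.1 for the adjusted p and 0.58 for the size of the log2 fold change (edgeR quasi-likelihood test, Benjamini-Hochberg over 18449 genes). Over all genes tested, 6 passed, or 0.0325%, so a count of 0 among 10 genes is near the background. At an unadjusted p under 0.05, 1 of the 10 (*Gpx3*) fell inside, against 4.64% of all genes. DESeq2 called 0 of the 10 (0.146% of all genes) and limma-voom called 0 (0.0325% of all genes), each with 1 of the 10 at an unadjusted p under 0.05. The genotypes stood apart without overlap in 0 of the 10 genes, which is near the 5.47% of all genes tested. Log2 fold changes (*Neat1*-KO minus *Neat1*-WT) ran from -0.05 for *Cat* to 0.33 for *Gpx3*, with 6 above 0 and 4 below. Their median was 0.0089, beside 0.0062 for all genes tested. The median size regardless of sign was 0.03, against 0.094 for all genes. Among the 8922 genes tested whose mean CPM was at least that of the lowest of the 10, this median was 0.064.

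**Figure D1:**
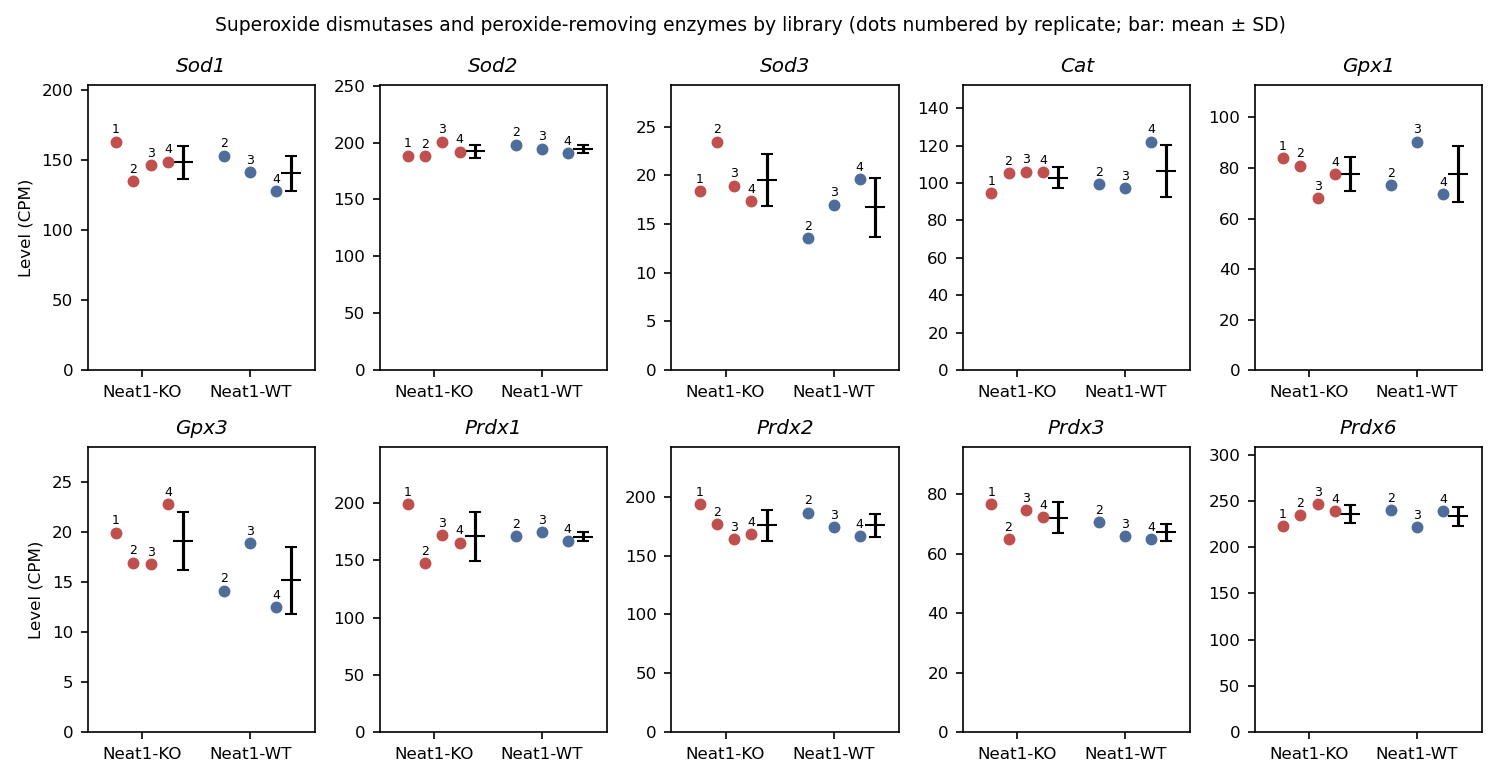
Level of each enzyme gene in CPM (vertical axes from 0) in the 4 *Neat1*-KO; hSOD1G93A libraries (red) and the 3 *Neat1*-WT; hSOD1G93A libraries (blue), with dots numbered by replicate and black bars for the mean ± SD. The red and blue dots overlap in every panel, and the widest spread is in *Gpx3* and *Sod3*.

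*Sod1* is the mouse homologue of the transgene. It was at 163.2, 134.9, 146.2 and 148.9 CPM in *Neat1*-KO libraries (replicates 1 to 4, the order used throughout) and at 153.1, 141.2 and 127.9 CPM in *Neat1*-WT libraries (replicates 2 to 4). The highest library was a *Neat1*-KO one and the lowest a *Neat1*-WT one, with the others interleaved. On the log2 scale the fold change was 0.08 ± 0.085 (SE; edgeR adjusted p = 0.992, exact permutation p = 0.429, two-sided), and its 95% confidence interval reached from -0.11 to 0.26, or 0.928-fold to 1.20-fold. Both ends lie inside the 1.50-fold change that the threshold asks for. The log2 value was 0.0089 without *Neat1*-WT replicate 4, 0.023 without *Neat1*-KO replicate 1 and 0.14 without *Neat1*-WT replicate 2. The deposited table has rows for mouse genes, and whether reads of the human transgene reached the *Sod1* row was not tested. Human SOD1 reads that aligned there cannot be told apart from mouse reads in these counts.

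*Sod2*, the mitochondrial enzyme, had the tightest values of all. Its levels were 188.4, 188.0, 200.8 and 192.1 CPM in *Neat1*-KO libraries and 198.2, 194.5 and 190.4 CPM in *Neat1*-WT libraries, so that the highest library exceeded the lowest only 1.07-fold. The means were 192.3 ± 5.94 (SD, n = 4) and 194.3 ± 3.87 (SD, n = 3) CPM. This gave a log2 fold change of -0.015 ± 0.063 (edgeR adjusted p = 0.996), with an interval from -0.15 to 0.12. *Sod3*, the secreted form, varied more among libraries. It was at 18.4, 23.5, 18.9 and 17.4 CPM without *Neat1* and at 13.5, 17.0 and 19.6 CPM with it. Replicate 2 was the highest *Neat1*-KO library and the lowest *Neat1*-WT one, and the genotypes overlapped. The log2 fold change of *Sod3* was 0.23 ± 0.14 (edgeR adjusted p = 0.992, unadjusted p = 0.13), with an interval from -0.08 to 0.53, which ends at 1.44-fold. Leaving out *Neat1*-WT replicate 2 gave 0.094, leaving out *Neat1*-KO replicate 2 gave 0.12 and leaving out *Neat1*-WT replicate 4 gave 0.35.

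Catalase mRNA was at 94.7, 105.4, 106.0 and 105.7 CPM in the *Neat1*-KO libraries and at 99.4, 97.3 and 122.1 CPM in the *Neat1*-WT libraries. The closeness of *Neat1*-KO replicates 2, 3 and 4 left replicate 1 alone at the low end, and *Neat1*-WT replicate 4 was the highest of all. Its log2 fold change was -0.05 ± 0.09 (edgeR adjusted p = 0.994), and leaving out *Neat1*-WT replicate 4 turned it to 0.06.

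*Gpx1*, the glutathione peroxidase inside cells, was at 83.8, 80.9, 68.1 and 77.5 CPM in *Neat1*-KO libraries and at 73.2, 90.4 and 69.6 CPM in *Neat1*-WT libraries. *Neat1*-KO replicate 3 was lowest and *Neat1*-WT replicate 3 highest, and the means were 77.6 ± 6.81 (SD, n = 4) and 77.8 ± 11.1 (SD, n = 3) CPM. *Gpx1* thus had a log2 fold change of -0.0041 ± 0.1 (edgeR adjusted p = 0.998), with an interval from -0.23 to 0.22.

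*Gpx3*, the secreted peroxidase, had the largest difference of the 10. It was at 19.98, 17.0, 16.8 and 22.8 CPM in *Neat1*-KO libraries and at 14.2, 18.9 and 12.5 CPM in *Neat1*-WT libraries. *Neat1*-WT replicates 2 and 4 lay below every *Neat1*-KO library, but *Neat1*-WT replicate 3 exceeded *Neat1*-KO replicates 2 and 3. The log2 fold change was 0.33 ± 0.15, at an unadjusted p of 0.048 and an adjusted p of 0.992 (edgeR), and it therefore did not pass. The exact permutation test gave p = 0.171 (two-sided, where the smallest possible is 0.0286). The interval ran from 0.0027 to 0.66, the only one of the 10 that reached past 0.58. Leaving out *Neat1*-WT replicate 4 gave a log2 fold change of 0.21 and leaving out *Neat1*-WT replicate 3 gave 0.52. *Gpx3* also had the lowest count of any of the 10, with 245 to 599 per library, where counting error alone is 6.39% at the lowest.

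Meningeal fibroblast markers (*Col1a1*, *Col1a2*, *Dcn*, *Lum*, *Slc6a13* and *Igf2*), whose tissue can remain on a dissected cord, varied strongly among the same libraries. Their summed level was 73.8, 193.4, 157.3 and 145.5 CPM in *Neat1*-KO libraries and 66.4, 104.1 and 197.1 CPM in *Neat1*-WT libraries. All 6 had log2 fold changes above 0, with a median of 0.29, and none passed the test. *Sod3* was lowest in the *Neat1*-WT library with the lowest sum. Its levels were highest in *Neat1*-KO replicate 2 (23.5 CPM) and *Neat1*-WT replicate 4 (19.6 CPM), the libraries with the highest sums. In *Neat1*-KO replicate 1, where the sum was only 73.8 CPM, *Sod3* was at 18.4 CPM, above *Neat1*-KO replicate 4 at 17.4 CPM. *Gpx3* was lowest in *Neat1*-WT replicate 4, the library with the highest sum. The part of these cells in the levels of *Sod3* and *Gpx3* was not tested.

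*Prdx1*, a cytosolic peroxiredoxin, was at 199.2, 147.5, 171.8 and 165.4 CPM in *Neat1*-KO libraries and at 170.9, 174.4 and 166.7 CPM in *Neat1*-WT libraries, with both extremes in *Neat1*-KO mice. Its means were 171.0 ± 21.5 (SD, n = 4) and 170.7 ± 3.88 (SD, n = 3) CPM, and the log2 fold change was 0.0023 ± 0.091 (edgeR adjusted p = 0.999). *Prdx2*, abundant in neurons, was at 193.8, 176.5, 163.7 and 168.1 CPM against 186.3, 174.0 and 166.7 CPM. Replicate 1 of *Neat1*-KO was highest and its replicate 3 lowest, with all *Neat1*-WT libraries between them. The *Prdx2* means were 175.6 ± 13.3 (SD, n = 4) and 175.6 ± 9.88 (SD, n = 3) CPM, and the interval of its log2 fold change was -0.17 to 0.17.

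*Prdx3*, the mitochondrial peroxiredoxin, was at 76.8, 65.0, 74.7 and 72.4 CPM in *Neat1*-KO libraries and at 70.6, 66.1 and 64.9 CPM in *Neat1*-WT libraries. Of the *Neat1*-KO libraries 3 lay above all *Neat1*-WT libraries, and replicate 2 lay among them. A log2 fold change of 0.1 ± 0.08 resulted (edgeR adjusted p = 0.992, exact permutation p = 0.171). *Prdx6* was at 222.9, 234.7, 246.7 and 238.9 CPM in *Neat1*-KO libraries and at 239.7, 221.6 and 238.6 CPM in *Neat1*-WT libraries. The lowest library of each genotype lay close to that of the other, at 222.9 and 221.6 CPM, and the log2 fold change was 0.016 ± 0.067 with an interval from -0.13 to 0.16.

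**Figure D2:**
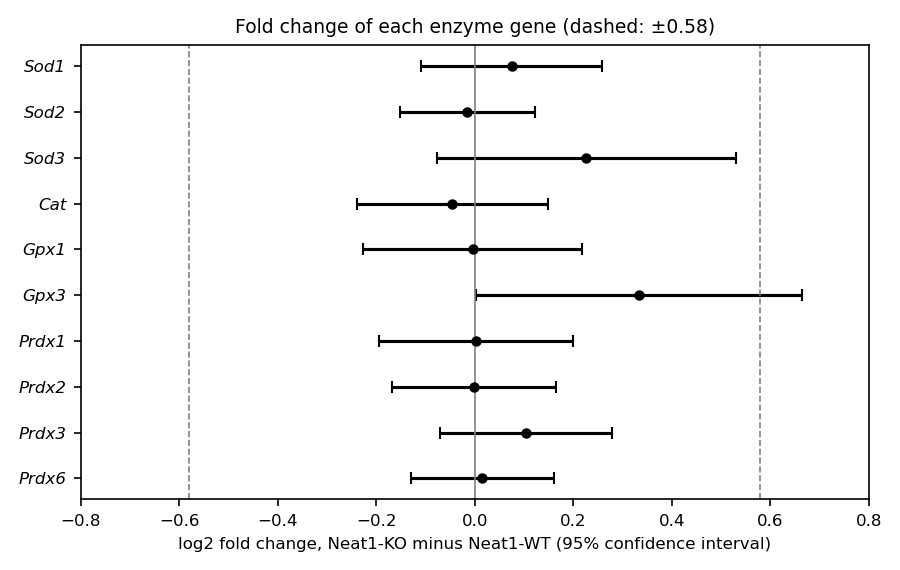
Log2 fold change of each enzyme gene (horizontal axis, *Neat1*-KO minus *Neat1*-WT) with its 95% confidence interval from the edgeR fit, and dashed lines at the threshold of 0.58 in each direction. Of the 10 intervals 9 lie inside the dashed lines, and the interval of *Gpx3* ends at 0.66.

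The intervals describe the average difference in RNA of the whole cord, and each was computed for its gene alone. Changes confined to some cell types of the cord, such as motor neurons, were not tested. For 9 of the 10 genes the whole interval lay within 0.58 on either side of 0. A whole-cord change as large as the threshold was thus outside the interval of each of these genes in both directions. Only the interval of *Gpx3* excluded 0, narrowly. The coefficient of variation within a genotype ran from 1.99% (*Sod2* in *Neat1*-WT) to 21.9% (*Gpx3* in *Neat1*-WT), and the ratio of the highest to the lowest library from 1.07 (*Sod2*) to 1.83 (*Gpx3*).

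The 10 genes together took 1173 to 1261 CPM in *Neat1*-KO libraries (mean 1214 ± 36.0, SD, n = 4) and 1179 to 1219 CPM in *Neat1*-WT libraries (mean 1198 ± 20.1, SD, n = 3), and these sums overlapped. The rank of libraries was not the same from gene to gene. *Neat1*-KO replicate 1 was the highest library for 4 of the 10 (*Sod1*, *Prdx1*, *Prdx2* and *Prdx3*) and the lowest for *Cat*. Its median deviation from the gene means was 0.13 on the log2 scale, and that of the other 6 libraries lay between -0.05 and 0.02. This library also had the smallest total count, at 19661878. *Neat1*-WT replicate 4, whose median deviation was the lowest at -0.05, had nearly as few at 19772073. *Neat1*-WT replicate 4 was the lowest library for 3 genes (*Sod1*, *Gpx3* and *Prdx3*) and the highest for *Cat*.

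**Figure D3:**
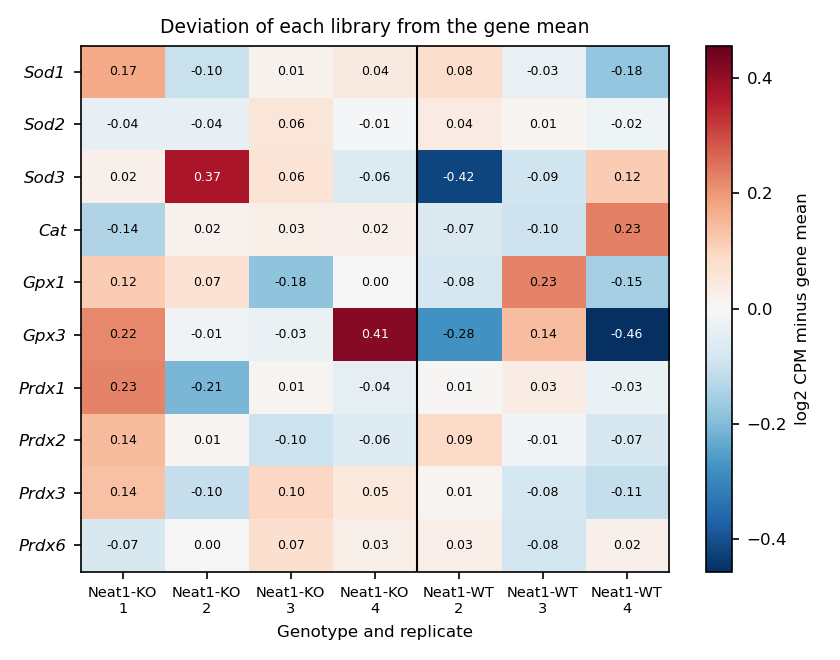
Log2 CPM of each enzyme gene (rows) in each library (columns) minus the mean of that gene over the 7 libraries, with *Neat1*-KO to the left and *Neat1*-WT to the right of the black line. *Neat1*-KO replicate 1 is above the mean for *Sod1* and all of *Prdx1* to *Prdx3*, and the strongest cells are those of *Gpx3* and *Sod3*.

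Levels of the enzyme genes were compared with each other only after division by length, as CPM per kb of the union of each gene's exons. *Prdx2* led at 57.6 ± 3.60 (SD over 7 libraries), followed by *Prdx1* at 56.2 ± 5.04, *Gpx1* at 53.9 ± 5.57, *Prdx6* at 48.9 ± 1.93, *Prdx3* at 47.4 ± 3.27, *Cat* at 39.9 ± 3.45 and *Sod1* at 36.5 ± 2.95. Neighbours from *Prdx2* to *Sod1* overlapped in their ranges over libraries and cannot be ordered. *Sod2* at 19.3 ± 0.487, *Gpx3* at 9.63 ± 1.93 and *Sod3* at 4.90 ± 0.803 CPM per kb followed, each below the previous gene in every library. Both secreted enzymes were thus at the bottom of the order.

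The place of *Sod1* depended on the length used. Its exons span 3970 bp because of a transcript annotated with a retained intron, whereas the only protein-coding transcript, Sod1-201, is 641 bp long. Per kb of the longest coding transcript, *Sod1* was at 226.3 ± 18.3 CPM, above *Prdx2* at 108.9 ± 6.82 and all others, with no overlap. This length was chosen after the data had been seen. With the longest transcript of any type it stayed at 36.5. Gene counts do not tell which transcript the reads came from, or whether some *Sod1* reads came from the human transgene. *Sod2* was at 33.0 CPM per kb with either transcript length in place of 19.3, while *Gpx3* and *Sod3* stayed lowest with all of these lengths.

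**Figure D4:**
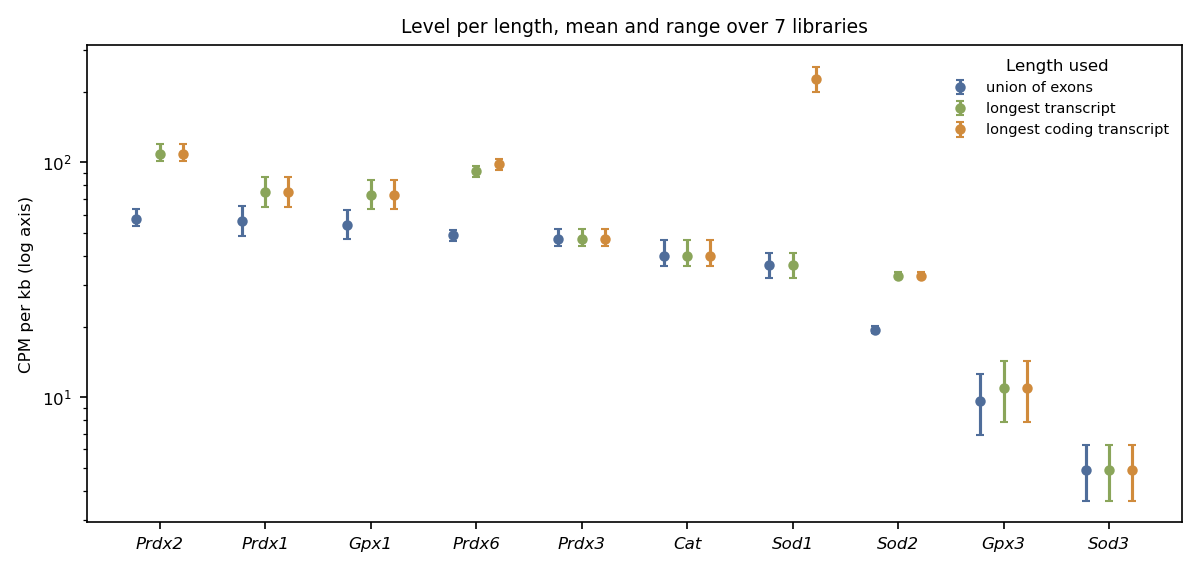
Level of each enzyme gene in CPM per kb (vertical log axis) by the length it was divided by, with dots for the mean and bars for the lowest and highest of the 7 libraries. *Sod1* moves from 36.5 with the union of exons to 226.3 with its coding transcript, while *Gpx3* and *Sod3* stay at the bottom.

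Near-identical copies were checked because reads shared with a copy can be lost or split when only uniquely mapped reads are counted. The search covered annotated mouse transcripts, so the human SOD1 transgene was not among the copies checked. The processed pseudogene *Gm8566* matched 97.8% of the *Sod1* coding sequence and held 55 to 106 counts per library, at most 4.93 CPM. *Prdx1* had 3 processed pseudogenes, of which *Gm21399* (98.3% identity) held 18 to 36 counts and the others at most 3. *Tdpx-ps1*, a *Prdx2* pseudogene of 96.3% identity, held 2 to 5 counts, and *Prdx6b*, at 92.9% identity to *Prdx6*, held 0. Reads that mapped to several places are not in the table, so the levels of *Sod1*, *Prdx1*, *Prdx2* and *Prdx6* are uncertain to that extent. *Prdx1* and *Prdx2* share 69.8% of their coding bases. Exons of *Prdx2* overlap those of *Rnaseh2a* by 177 bp and of *Junb* by 173 bp on the opposite strand. The libraries were directional, but the strand setting of the counting is not stated, so reads in these stretches cannot be assigned with certainty.

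Genes around these enzymes were examined in 6 lists of 60 genes, 53 of which were tested. The lists hold other members of the peroxidase families, suppliers of reductant, copper and selenium, and the NADPH oxidases. None of the 53 passed (edgeR), against 0.0325% of all genes, 3 had an unadjusted p under 0.05, against 4.64% of all genes, and the lowest adjusted p was 0.962. Their median absolute log2 fold change was 0.064, and the genotypes stood apart without overlap in 4 of them, which is near the 5.47% of all genes.

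Of the other glutathione peroxidases and peroxiredoxins, 5 of 9 were tested, with a median log2 fold change of 0.03. *Gpx4*, the peroxidase that reduces lipid peroxides in membranes, had the highest level per length of this list, at 239.2 to 342.4 CPM in *Neat1*-KO libraries and 244.2 to 286.2 CPM in *Neat1*-WT libraries, with *Neat1*-KO replicate 1 highest. *Prdx4*, the peroxiredoxin of the endoplasmic reticulum, had a log2 fold change of 0.14 ± 0.14, and *Gpx7* of -0.04 ± 0.22.

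The thioredoxin system, which recycles *Prdx1*, *Prdx2* and *Prdx3*, was tested in full at 7 of 7, with 5 log2 fold changes above 0 and 2 below. *Txnip*, which binds and inhibits thioredoxin, was at 11.4, 19.99, 17.1 and 31.5 CPM in *Neat1*-KO libraries and at 11.0, 13.9 and 18.6 CPM in *Neat1*-WT libraries. Its log2 fold change of 0.47 ± 0.27 did not pass (edgeR adjusted p = 0.992), and *Neat1*-KO replicate 4 stood highest. *Txnrd1*, the cytosolic thioredoxin reductase, was at 84.2 to 88.0 CPM in *Neat1*-KO libraries and at 88.8 to 90.6 CPM in *Neat1*-WT libraries, without overlap, but by a log2 fold change of only -0.06 ± 0.066 (adjusted p = 0.992). *Srxn1*, sulfiredoxin, which repairs overoxidised peroxiredoxins, was the highest of the list per length and had a log2 fold change of 0.06 ± 0.081.

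All 13 genes of glutathione synthesis and recycling were tested, with 7 above 0 and 6 below and a median log2 fold change of 0.015. *Ggt7*, a member of the gamma-glutamyltransferase family, was at 157.3, 156.6, 132.6 and 156.6 CPM in *Neat1*-KO libraries and at 139.0, 126.9 and 126.2 CPM in *Neat1*-WT libraries. Only *Neat1*-KO replicate 3 lay among the *Neat1*-WT libraries, and the log2 fold change of 0.21 ± 0.08 did not pass (unadjusted p = 0.024, edgeR adjusted p = 0.992). It was also the gene of highest level per length in the list. *Chac2*, which degrades glutathione, had a log2 fold change of -0.31 ± 0.15 (adjusted p = 0.992) at 6.37 to 9.20 CPM over all libraries.

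Copper reaches *Sod1* through its chaperone *Ccs*. *Ccs* was at 14.5, 15.6, 14.6 and 15.9 CPM in *Neat1*-KO libraries and at 13.7, 14.6 and 11.8 CPM in *Neat1*-WT libraries. The levels overlapped, and the log2 fold change was 0.18 ± 0.11 (edgeR adjusted p = 0.992). Of the 10 copper genes tested, 8 had log2 fold changes below 0 and 2 above, with a median of -0.05. *Slc31a1*, the copper importer, had -0.1 ± 0.097, and *Mt3*, a brain metallothionein and the highest of the list per length, -0.03 ± 0.081.

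NADPH oxidases make superoxide or hydrogen peroxide, substrates of the enzymes above. The 12 genes, of which 9 were tested, summed to 27.4 to 33.8 CPM in *Neat1*-KO libraries and 27.9 to 29.8 CPM in *Neat1*-WT libraries. *Cyba*, a membrane subunit and the highest per length, was between 3.42 and 5.68 CPM with a log2 fold change of 0.22 ± 0.19, and *Nox1* had -0.04 ± 0.15. *Duox1* had counts of 11, 13, 12 and 21 in *Neat1*-KO libraries and of 5, 10 and 1 in *Neat1*-WT libraries. These counts did not overlap, and at so few reads the log2 fold change of 1.27 ± 0.54 did not pass (edgeR adjusted p = 0.992).

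Selenium supply is needed for *Gpx1* and *Gpx3*. All 9 genes of selenoprotein synthesis and transport were tested, 2 above 0 and 7 below, with a median log2 fold change of -0.03. *Selenop*, the selenium carrier taken up by neurons through *Lrp8*, was at 543.2, 486.2, 560.1 and 485.7 CPM in *Neat1*-KO libraries and at 598.7, 599.9 and 603.9 CPM in *Neat1*-WT libraries. All *Neat1*-KO libraries lay below all *Neat1*-WT libraries. The log2 fold change of -0.21 ± 0.07 had an unadjusted p of 0.01 and an adjusted p of 0.962 (edgeR), so it did not pass. *Eefsec*, the elongation factor that brings selenocysteine to the ribosome, had 0.11 ± 0.14.

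**Figure D5:**
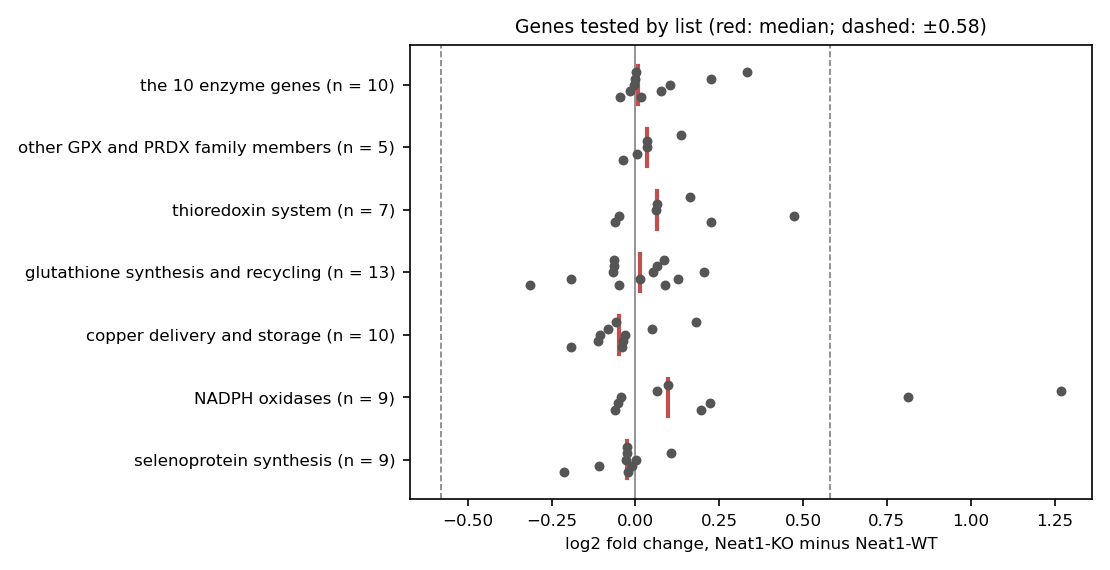
Log2 fold change (horizontal axis, *Neat1*-KO minus *Neat1*-WT) of every tested gene in the 10 enzyme genes and the 6 related lists, with red bars at the medians and dashed lines at 0.58 in each direction. The list medians lie between -0.05 and 0.1, and the points beyond a dashed line, *Duox1* and *Ncf4*, are NADPH oxidase genes with few counts, neither of which passed the test.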

How the data were processed

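Poly(A) RNA of cervical spinal cord was sequenced in 7 libraries, grouped by genotype from the labels. The authors trimmed paired reads with Trimmomatic 0.38, aligned them to mm10 with HISAT2 2.1.0 and counted uniquely mapped reads with featureCounts 1.6.3, per the study's methods and the submitters' processing notes. They deposited raw counts per gene, not normalized. The annotation release and strand setting are not given in the sources used here. Symbols came from GENCODE M21, which named 55227 of 55487 genes.

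In R 4.3.3, edgeR 4.0.16 tested the whole table (filterByExpr, TMM, quasi-likelihood F-test, Benjamini-Hochberg adjustment). The biological coefficient of variation was 0.128. Calls used the study's thresholds, 0.1 for the adjusted p and 0.58 for the size of the log2 fold change. The procedure recovered known changes in data simulated with the spread that edgeR had estimated from these libraries. Those changes were all larger than the threshold of 0.58. Recovery of differences as small as those of the enzyme genes was not tested. The p-values measure the spread between mice, since each library is labelled as a separate sample. Single genes were also tested by an exact permutation test over the 35 ways to divide 7 libraries into 4 and 3. Alternatives used other factors, filters and dispersion, DESeq2 1.42.0, limma 3.58.1, a replicate block, *Xist* as a covariate and each library left out. Copies were searched with BLAST 2.17.0 at 90% identity or more over at least 50% of the coding sequence. The counting error given for *Gpx3* covers counting alone. Standard errors were derived from the fold change and the F statistic of the edgeR test. The 95% confidence intervals were built from these with the t distribution, and they include the spread between mice.

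The enzyme genes and all lists were chosen with earlier results of these data known. Named genes were all 10 enzyme genes and, from each related list, the gene of smallest unadjusted p in each direction and that of highest level per length. *Ncf4* was named after its value was seen. Sensory ganglion markers (5 genes) summed to at most 2.24 CPM and blood markers (5 genes) to at most 13.6 CPM in any library.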

Additional observations from a re-analysis of the deposited data

Results flagged for a closer look

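The 4 *Neat1*-KO; hSOD1G93A libraries were examined for a library far from the rest in 26 genes, the 10 enzyme genes and the named related genes. The gap of the extreme library to its neighbour, divided by the range of the group, exceeded Dixon's 95% critical value for 4 samples in 4 of them, and chance flags about 1 in 20 groups (1.3 of 26). The 3 *Neat1*-WT libraries are too few for this rule. Among the enzyme genes only *Cat* was flagged, with a ratio of 0.951 because *Neat1*-KO replicate 1 was at 94.7 CPM and the other 3 between 105.4 and 106.0 CPM. *Ggt7* had a ratio of 0.97, with *Neat1*-KO replicate 3 low at 132.6 CPM. *Cyba* had a ratio of 0.867, with *Neat1*-KO replicate 2 high at 5.68 CPM, and *Duox1* one of 0.852, with *Neat1*-KO replicate 4 high at 0.801 CPM. All ratios were computed on CPM. That of *Duox1* rests on only 11 to 21 counts per *Neat1*-KO library and depends on the scaling. The flagged library differed from gene to gene.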

How the results depend on the processing

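No enzyme gene and no related gene was called under any alternative, with the lowest adjusted p of an enzyme gene at 0.513 (*Gpx3*, no filter). Of 160 fold changes of the enzyme genes under 16 alternatives, 139 kept their direction. *Sod1*, *Sod3*, *Gpx3* and *Prdx3* kept it in all. The reversals were of log2 fold changes near 0, and their causes were not tested. *Sod2* turned to 0.0014 and *Cat* to 0.023 with *Xist* as a covariate, where *Sod3* was at 0.076, a term that rests on 0 to 4 counts per library. *Gpx1* turned to 0.0002024 in limma-voom and *Prdx2* to 0.0003121 with upper-quartile factors. *Prdx1* turned to -0.0034 with median-of-ratios factors, -0.0017 with no filter, -0.0035 in DESeq2, -0.0084 in limma-voom and -0.032 with *Xist* as a covariate. Leaving out 1 library at a time gave ranges of 0.0089 to 0.14 for *Sod1*, -0.037 to -0.0013 for *Sod2*, 0.094 to 0.35 for *Sod3*, 0.21 to 0.52 for *Gpx3*, 0.07 to 0.15 for *Prdx3*, -0.11 to 0.064 for *Cat*, -0.079 to 0.12 for *Gpx1*, -0.082 to 0.067 for *Prdx1*, -0.054 to 0.043 for *Prdx2* and -0.021 to 0.039 for *Prdx6*. *Gpx3* had an unadjusted p under 0.05 in 9 of 16 alternatives and *Sod3* in 1 (without *Neat1*-WT replicate 4).

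The replicate numbers are not stated to mark litters or batches, so they were not taken as pairs. Deviations of same-numbered libraries from their group means correlated at -0.24, -0.16 and -0.012. Differently numbered libraries were not correlated for reference, so these values cannot decide whether the numbers mark pairs. With the replicate block, *Prdx1* turned to -0.082 and the calls over all genes rose from 6 to 39, while no enzyme gene was called. Over all genes, 124 were called with no filter and 27 by DESeq2, and 3 to 31 with 1 library left out (31 without *Neat1*-KO replicate 1; leaving out *Neat1*-WT replicate 4 gave 11 and replicate 3 gave 3).

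Levels per length moved with the length. With the longest transcript, *Sod2* was at 33.0, *Gpx1* at 72.4, *Prdx1* at 74.5, *Prdx2* at 108.9 and *Prdx6* at 91.8 CPM per kb. With the longest coding transcript, added after seeing the data, *Sod1* was at 226.3 and *Prdx6* at 98.3, and the other 4 as with the longest transcript. With 4 and 3 mice, the confidence intervals limit what can be said, and no limit of detection was computed.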
